A study of Mus musculus with 6 samples.

Results

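Elastic fibers give skin, lung and arteries their recoil, and the 10 genes described here encode elastin itself (*Eln*) and 9 proteins of the scaffold around it: the fibrillins *Fbn1* and *Fbn2*, the fibulins *Fbln1*, *Fbln2*, *Fbln5*, *Efemp1* and *Efemp2*, and the microfibril-associated glycoproteins *Mfap2* and *Mfap5*. They were taken by symbol from a table of 29955 genes, and were chosen from measured values, that is with the difference between the genotypes known, so that their differences are a description and carry no test. All 10 were among the 16378 genes with enough reads to be tested.

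RNA was sequenced from mouse embryonic fibroblasts (MEFs) at passage 3, in 3 libraries of *Rnf40*+/+ and 3 libraries of Rnf40-/- cells, to ask which transcripts depend on RNF40, a subunit of the ligase that attaches a single ubiquitin to histone H2B. In the conditional allele of the study, exons 3 and 4 of *Rnf40* lie between loxP sites and are removed by CreERT2, a tamoxifen-dependent recombinase expressed in all cells from the Rosa26 locus. Rnf40-/- MEFs were grown in 250 nM 4-hydroxytamoxifen (4-OHT) for 5 days and for 3 further days without it. Both copies of *Rnf40* were of this form, and the recombinase was present, in the embryos that gave the MEFs of the study. Whether the *Rnf40*+/+ cells sequenced were such cells left without 4-OHT is not stated in the sources used here, so deletion and treatment cannot be told apart. The labels do not say that replicates came from separate embryos, and p-values therefore measure only the spread between these samples, which may be technical.

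A normalized count, the deposited unit, stands for the reads of a gene after division by the size factor of the library. Depth over all genes was 17053436, 20781071 and 26344170 reads in *Rnf40*+/+ and 18741606, 18115481 and 20495627 in Rnf40-/- MEFs. The limit of detection was set at 3 reads, worth 2.40 to 3.58 normalized counts depending on the library.

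*Rnf40*+/+ replicate 3, the deepest library, stood apart from the other replicates of its genotype. Between *Rnf40*+/+ replicates 1 and 2 the chi-square per degree of freedom was 7.87, against 26.9 and 24.1 between each of them and replicate 3, while the 3 pairs of Rnf40-/- libraries gave 5.05, 12.4 and 9.14. Pairs of different genotype gave 69.6 to 107, and no pair agreed within sampling noise. Among 15499 tested genes with a mean normalized count above 15, 542 (3.50%) were more than 1.5-fold above both other replicates in *Rnf40*+/+ replicate 3, and 457 (2.95%) were so in *Rnf40*+/+ replicate 1. In the other 4 libraries the number was between 125 and 185. *Eln*, *Fbn2*, *Fbln1* and *Mfap2* were among the 542 genes, so the log2 differences of these genes are given with and without it. No member was among the genes of *Rnf40*+/+ replicate 1. *Eln* was also more than 1.5-fold above the other replicates in Rnf40-/- replicate 2 and more than 1.5-fold below them in Rnf40-/- replicate 3.

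Of 6 macrophage markers, 2 (*Lyz2* and *Cd68*) were more than 1.5-fold above both other replicates in that library. The 6 genes listed (*Ptprc*, *Csf1r*, *Emr1*, *Cd68*, *Lyz2* and *Itgam*) summed to 5284, 5680.1 and 9015 normalized counts in *Rnf40*+/+ replicates 1 to 3 and to 3578, 3362 and 3672 in the Rnf40-/- libraries. *Lyz2*, which encodes lysozyme, held 74.3% of the sum, and none of the 6 genes was at 0 in every library. *Cd68* was at 159, 189 and 427 normalized counts in the *Rnf40*+/+ libraries, while *Ptprc*, the pan-leukocyte marker CD45, was at 46.6, 65.3 and 75.9. *Csf1r* was at 356, 307 and 449.6, *Emr1* at 259, 259 and 279 and *Itgam* at 519, 303 and 343, so that *Itgam* was highest in *Rnf40*+/+ replicate 1. The part of such cells in the values of *Rnf40*+/+ replicate 3 was not tested.

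RNA of the targeted gene was lower in Rnf40-/- MEFs. *Rnf40* was at 1278, 1195 and 1096 normalized counts in *Rnf40*+/+ and at 439, 519 and 487 in Rnf40-/- MEFs. The groups did not overlap, and the means of 1189.5 ± 91.2 and 482 ± 39.9 (SD, n = 3) left 40.5% of the *Rnf40*+/+ level, with a log2 difference of -1.30 ± 0.09 (standard error). Reads were counted over the whole gene, and reads on the deleted exons alone were not analysed here.

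An elastic fiber forms when cells secrete soluble tropoelastin, which gathers into droplets at the cell surface and is laid onto a bundle of microfibrils built of fibrillin. Fibulins bring tropoelastin together with the lysyl oxidases, copper enzymes that cross-link it into insoluble elastin. Most elastin is made around birth by fibroblasts and smooth muscle cells, and loss of single components causes loose skin, emphysema or aneurysm in mice and in patients.

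Of the 10 genes, 7 were called lower in Rnf40-/- MEFs (an adjusted p under 0.05 in limma with Benjamini-Hochberg adjustment over all genes tested), 0 were called higher and 3 were not called. Across all genes tested 24.1% were called lower and 23.3% higher, 47.4% in either direction, and since the genes were chosen on this contrast nothing is read from the count. In 9 of the 10 genes every Rnf40-/- library was below every *Rnf40*+/+ library, a pattern shown by 28.7% of all genes tested. The median log2 difference of the 10 genes was -0.70, beside -0.0035 for all genes tested, and it was -0.67 without *Rnf40*+/+ replicate 3.

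**Figure D1:**
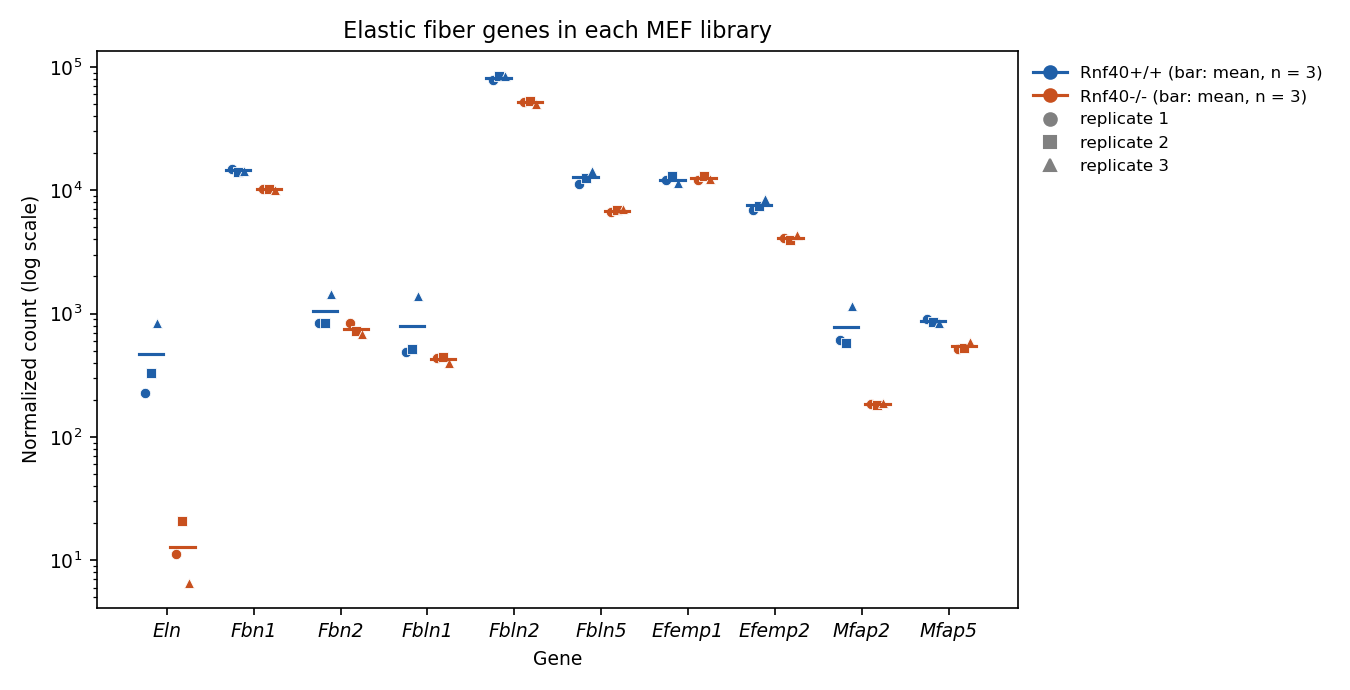
Normalized count of each elastic fiber gene on a log axis, with 1 point for each library and a bar at the mean of each genotype (n = 3). *Eln* lies lowest of all in Rnf40-/- MEFs, at 6.61 to 20.9, and the triangle of *Rnf40*+/+ replicate 3 stands above the other replicates for *Eln*, *Fbn2*, *Fbln1* and *Mfap2*.

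*Eln*, which encodes tropoelastin, showed the lowest log2 difference of any gene tested. Its normalized counts were 227, 328 and 843 in the *Rnf40*+/+ libraries, from 190, 322 and 1056 reads. In the Rnf40-/- libraries they were 11.2, 20.9 and 6.61, from 11, 20 and 7 reads. Thus *Rnf40*+/+ replicate 3 was far above the other replicates, the Rnf40-/- libraries also differed among themselves, and the groups were nonetheless far from each other. The exact Poisson 95% intervals of the normalized count, which cover counting error only, reached from 5.60 to 20.1, from 12.7 to 32.2 and from 2.66 to 13.6 in the Rnf40-/- libraries. In *Rnf40*+/+ they reached from 196 to 262, from 293 to 366 and from 793 to 896, so that the differences among the *Rnf40*+/+ libraries exceeded counting error. The intervals of the Rnf40-/- libraries overlapped each other.

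The mean of *Eln* was 466 ± 330.5 in *Rnf40*+/+ and 12.9 ± 7.28 in Rnf40-/- MEFs (SD, n = 3), a 36.1-fold lower level. Without *Rnf40*+/+ replicate 3 it was 21.5-fold lower, and the lowest *Rnf40*+/+ library was 10.9-fold above the highest Rnf40-/- library. Unless another setting is named, log2 differences are on the scale of log2(normalized count + 1). This scale understates the difference of genes with few reads. On it the value of *Eln* was -4.98 ± 0.45 (standard error), and -4.43 ± 0.38 without *Rnf40*+/+ replicate 3. Leaving out any 1 library gave a value between -5.38 and -4.43. *Fam64a* was next in order, at -4.09, and without *Rnf40*+/+ replicate 3 the next gene was *Sv2a*, at -4.40. In bulk RNA, fewer cells that make elastin and less *Eln* RNA in each cell cannot be told apart.

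*Fbn1* encodes the main building block of the microfibril and is mutated in Marfan syndrome. It was at 14997, 14148 and 14418 normalized counts in *Rnf40*+/+ and at 10149, 10172 and 10108 in Rnf40-/- MEFs. The replicates lay close together in each genotype, *Rnf40*+/+ replicate 3 included, and the groups were separate. The means were 14521 ± 434 and 10143 ± 32.8, so that 69.8% of the level was left, and the log2 difference was -0.52 ± 0.06 with or without *Rnf40*+/+ replicate 3.

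*Fbn2*, the fibrillin used mostly in the embryo, gave 846, 846 and 1455 normalized counts in *Rnf40*+/+ and 836, 717 and 687 in Rnf40-/- MEFs. Apart from *Rnf40*+/+ replicate 3 the values were close, and the highest Rnf40-/- library nearly met the lowest *Rnf40*+/+ library. The log2 difference was -0.45 ± 0.17 over all libraries and -0.18 ± 0.09 without *Rnf40*+/+ replicate 3, with 71.2% and 88.3% of the level left. *Fbn2* was not called, but was called lower with edgeR and without *Rnf40*+/+ replicate 1 or 2, and 1 library thus decided the size of its difference. The log2 ratio of *Fbn2* to *Fbn1* within a library was -3.84 ± 0.46 in *Rnf40*+/+ and -3.77 ± 0.15 in Rnf40-/- MEFs (mean ± SD). *Rnf40*+/+ replicates 1 and 2, at -4.15 and -4.06 with a mean of -4.10, were below every Rnf40-/- library (-3.88 to -3.60), and the ranges overlapped only through replicate 3, at -3.31.

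*Fbln1* encodes a fibulin found in the elastin core of the fiber and in basement membranes. Its normalized counts were 491, 517 and 1386 in *Rnf40*+/+ and 438, 448 and 398 in Rnf40-/- MEFs. It resembled *Fbn2* in that a single *Rnf40*+/+ library was high and the rest lay near the Rnf40-/- values, which they did not overlap. The log2 difference was -0.72 ± 0.29, or -0.24 ± 0.10 without *Rnf40*+/+ replicate 3, and the share of the level left went from 53.7% to 85.0%. *Fbln1* was not called, but like *Fbn2* it was called lower with edgeR and without *Rnf40*+/+ replicate 1 or 2.

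*Fbln2*, a related fibulin that binds fibrillin and elastin, had the most reads of the 10 genes. It was at 77969, 83842 and 84258 normalized counts in *Rnf40*+/+ and at 52149, 52935 and 50382 in Rnf40-/- MEFs. The groups were wide apart in comparison with their spread, and 63.2% of the level was left, with a log2 difference of -0.66 ± 0.08. The log2 ratio of *Fbln2* to *Fbln1* was 6.86 ± 0.81 in *Rnf40*+/+ and 6.92 ± 0.05 in Rnf40-/- MEFs. *Rnf40*+/+ replicates 1 and 2, at 7.31 and 7.34 with a mean of 7.32, were above every Rnf40-/- library (6.88 to 6.98), and replicate 3, at 5.93, was below them all.

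The short fibulins that tie tropoelastin to microfibrils and to the cross-linking enzymes were lower by nearly the same amount. *Fbln5*, whose loss in mice leaves fragmented elastic fibers, was at 11343, 12525 and 14281 normalized counts in *Rnf40*+/+ and at 6619, 6874 and 7013 in Rnf40-/- MEFs. *Efemp2*, also named fibulin-4 and needed for elastic fibers to form at all, was at 6917, 7414 and 8542 in *Rnf40*+/+ and at 4093, 3945 and 4302 in Rnf40-/- MEFs. Both genes were highest in *Rnf40*+/+ replicate 3 and showed no overlap between the genotypes. Of the *Rnf40*+/+ level 53.8% of *Fbln5* and 53.9% of *Efemp2* was left. Their log2 differences were both -0.89 ± 0.08, and both -0.80 ± 0.07 without *Rnf40*+/+ replicate 3. Their log2 ratio, *Fbln5* to *Efemp2*, was 0.74 ± 0.02 in *Rnf40*+/+ and 0.73 ± 0.06 in Rnf40-/- MEFs, and the ranges overlapped.

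*Efemp1*, or fibulin-3, is the closest relative of *Efemp2* and a component of connective tissue fascia. It was at 12018, 12967 and 11495 normalized counts in *Rnf40*+/+ and at 12172, 13156 and 12424 in Rnf40-/- MEFs. It was the exception among the 10 genes, with groups that overlapped and a mean in Rnf40-/- MEFs at 103% of that in *Rnf40*+/+. The log2 difference was 0.05 ± 0.07 and stayed between 0.01 and 0.10 whichever library was left out. Within a library *Efemp2* stood to *Efemp1* at a log2 ratio of -0.68 ± 0.22 in *Rnf40*+/+ and -1.61 ± 0.11 in Rnf40-/- MEFs. That ratio did not overlap, its lowest *Rnf40*+/+ value being -0.81 and its highest Rnf40-/- value -1.53.

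The microfibril-associated glycoproteins are small proteins that bind to fibrillin along the microfibril. *Mfap2*, which encodes MAGP-1, was at 605, 580.2 and 1152 normalized counts in *Rnf40*+/+ and at 186, 182 and 187 in Rnf40-/- MEFs. The Rnf40-/- libraries nearly coincided, and even the *Rnf40*+/+ replicates 1 and 2 were far above them. The log2 difference was -2.00 ± 0.21, with 23.7% of the level left, and -1.68 ± 0.11 without *Rnf40*+/+ replicate 3, with 31.2% left. After *Eln* it was the largest among the 10 genes, while 1017 of all genes tested had a log2 difference below -1, and *Mfap2* stood at position 189 of 16378 from the lowest, or 320 of 16712 without *Rnf40*+/+ replicate 3.

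*Mfap5*, which encodes MAGP-2, was at 910.0, 855 and 842 normalized counts in *Rnf40*+/+ and at 515, 528 and 592 in Rnf40-/- MEFs. Here *Rnf40*+/+ replicate 3 was the lowest of its group, and the groups were separate. The log2 difference was -0.67 ± 0.08, with 62.7% of the level left. As a log2 ratio, *Mfap5* to *Mfap2* was 0.59, 0.56 and -0.45 in *Rnf40*+/+ and 1.47, 1.53 and 1.66 in Rnf40-/- MEFs. The balance of the pair thus lay further toward *Mfap5* in every Rnf40-/- library.

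**Figure D2:**
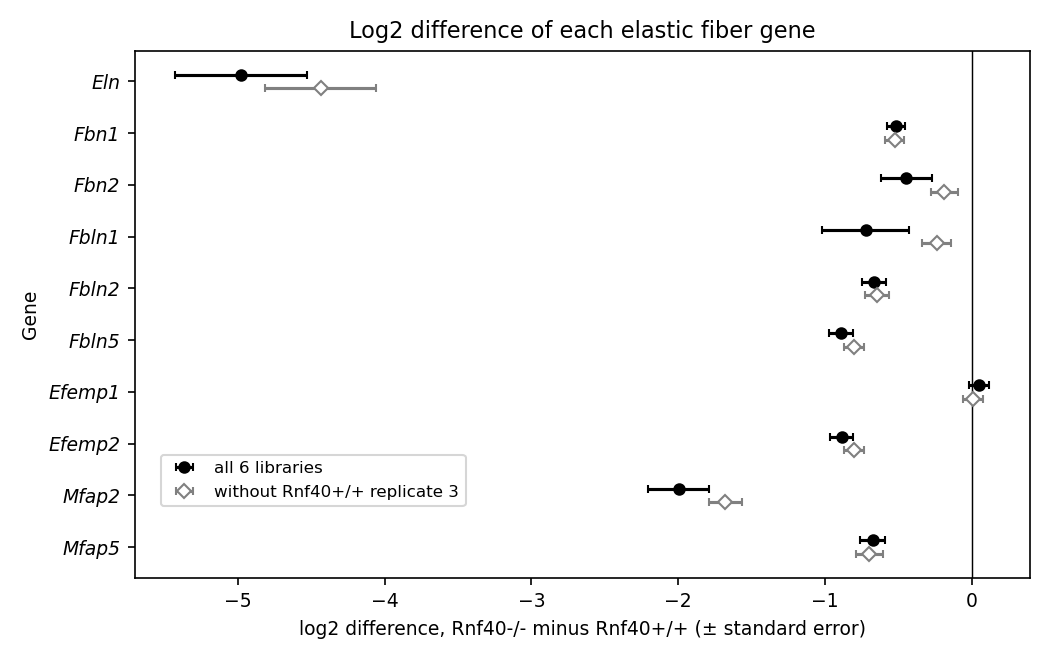
Log2 difference between Rnf40-/- and *Rnf40*+/+ MEFs for each gene, with its standard error, over all 6 libraries (filled) and without *Rnf40*+/+ replicate 3 (open). *Eln* lies at -4.98 and -4.43 and *Mfap2* at -2.00 and -1.68, *Fbn2* and *Fbln1* come closer to 0 without that library, and *Efemp1* lies at 0.05 and 0.01.

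Of the 6 ratios between members, that of the scaffold to elastin itself differed most between the genotypes. The log2 ratio of *Fbn1* to *Eln* was 6.04, 5.42 and 4.09 in *Rnf40*+/+ and 9.70, 8.86 and 10.38 in Rnf40-/- MEFs. The means of 5.19 ± 0.99 and 9.65 ± 0.76 (SD, n = 3) lay 4.46 apart and the ranges did not overlap. Without *Rnf40*+/+ replicate 3 the mean in *Rnf40*+/+ was 5.73. The spread within each genotype came from *Eln*, as *Fbn1* hardly varied between replicates.

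Levels of different genes were compared as normalized counts per kilobase of annotated exon. *Fbln2* was the most abundant at 13959 ± 598 in *Rnf40*+/+ MEFs, followed by *Efemp1* at 5969 ± 367, *Efemp2* at 2879 ± 315, *Fbln5* at 2182 ± 254 and *Fbn1* at 1197 ± 35.8 (SD, n = 3). Each of these was above the next in every *Rnf40*+/+ library. *Mfap2* followed at 644 ± 267 and *Mfap5* at 242 ± 10.0, again without overlap. The last 3 positions were held by *Fbln1* at 183 ± 117, *Eln* at 180.5 ± 128 and *Fbn2* at 100.1 ± 33.6, whose ranges overlapped each other. The ranges of *Fbln1* and *Eln* also overlapped that of *Mfap5*. Part of this came from *Rnf40*+/+ replicate 3, where *Fbln1* was at 317, *Eln* at 326 and *Fbn2* at 139 per kilobase. In replicates 1 and 2 *Fbln1* was at 112 and 118 and *Eln* at 87.8 and 127, which overlapped each other only, while *Fbn2* was at 80.7 and 80.8, below both, and *Mfap5* at 254 and 238, above both. The only annotated transcript of *Eln* used for its length holds no untranslated region. If reads on untranslated regions were counted, its level per kilobase is too high by an amount that was not measured.

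In Rnf40-/- MEFs *Fbln2* at 8819 ± 222 and *Efemp1* at 6178 ± 251 per kilobase came closer to each other. *Mfap2* at 153 ± 2.30 and *Mfap5* at 152 ± 11.5 overlapped, and *Eln* moved to the last position at 4.99 ± 2.82, under *Fbn2* at 71.3 ± 7.51. Of the summed level of the 10 genes, *Efemp1* made up 21.7% ± 1.86 in *Rnf40*+/+ and 32.4% ± 0.752 in Rnf40-/- MEFs. The share of *Fbln2* was 50.7% ± 0.837 and 46.3% ± 0.754, and that of *Eln* was 0.643% ± 0.429 (0.398% without *Rnf40*+/+ replicate 3) and 0.0261% ± 0.0142. Elastin was thus a small share of these transcripts in both genotypes.

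The 10 genes lie on 9 chromosomes, with only *Fbln2* and *Mfap5* on the same one, chromosome 6. In the mm9 annotation *Eln* (ENSMUSG00000029675) spans 135179651 to 135223111 on the minus strand of chromosome 5 and has 37 exons. *Mfap2* (ENSMUSG00000060572) spans 140566333 to 140571899 on the plus strand of chromosome 4, a gene of 5567 bases against 207400 for *Fbn1* on chromosome 2. *Fbn1* shares 2442 bases of its exons (20.1%) with *Gm9913* on the opposite strand. The libraries were made with a directional kit, but whether the counting used the strand is not given in the sources used here, so reads of that stretch cannot be assigned to either gene. No other member overlapped the exons of another gene. Nor did any share a near-identical stretch of at least 100 bases with a protein-coding transcript of another gene. Other kinds of transcript were not searched.

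Genes beside the 10 members were given as a local comparison. Of 13 neighbours tested, 6 were called lower, 3 were called higher and 4 were not called, with a median log2 difference of -0.28. Over all genes tested the shares were 24.1% lower and 23.3% higher, with a median of -0.0035. *Limk1*, a kinase of the actin cytoskeleton, lies 15191 bases from *Eln* and is named after its values were seen. It was at 936, 672 and 694 normalized counts in *Rnf40*+/+ and at 520.0, 494 and 565 in Rnf40-/- MEFs, which did not overlap, with a log2 difference of -0.53 ± 0.12 (adjusted p = 0.00325, limma with Benjamini-Hochberg adjustment). *Atp13a2* and *Crocc*, the neighbours of *Mfap2*, had log2 differences of -0.28 ± 0.10 (adjusted p = 0.0339) and -0.34 ± 0.14 (adjusted p = 0.0646) in the same fit. The call of *Atp13a2* was lost without *Rnf40*+/+ replicate 3 (adjusted p = 0.111) and without Rnf40-/- replicate 1 or 2 (0.0734 and 0.134), with a range of 0.0102 to 0.134 over the alternatives. *Crocc* was called lower without *Rnf40*+/+ replicate 1 (adjusted p = 0.0188, range 0.0188 to 0.176).

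The largest difference among the 13 neighbours was in the other direction. *Slc12a2*, which encodes a sodium, potassium and chloride cotransporter and lies beside *Fbn2*, was at 683, 853 and 673 normalized counts in *Rnf40*+/+ and at 1539, 1598 and 1547 in Rnf40-/- MEFs, with a log2 difference of 1.09 ± 0.09 (adjusted p = 2.1e-06 in limma). *Trip11*, beside *Fbln5*, had a log2 difference of 0.43 ± 0.10 (adjusted p = 0.00355). Both were also named after their values were seen.

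The calls of 2 neighbours of other members were also lost under some alternatives. *Hdac11*, beside *Fbln2*, was not called without *Rnf40*+/+ replicate 2 or 3 or Rnf40-/- replicate 2 (adjusted p = 0.0628, 0.0772 and 0.115 in limma, range 0.0069 to 0.115). *Ccdc85a*, beside *Efemp1*, was not called without any library other than *Rnf40*+/+ replicate 1 (adjusted p from 0.0591 to 0.0998 in limma). Its call was also lost with DESeq2 (adjusted p = 0.0894) and in limma with no gene filter beyond 1 read (0.0613), with a range of 0.0295 to 0.0998 over the alternatives.

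Promoter windows from RefSeq (build GRCm38.p6, 250 bases before to 50 after a transcript start) were matched by symbol for 7 of the 10 genes, with 12 windows in all. *Eln*, *Fbn2* and *Mfap5* have no entry in the table of windows used here. The windows were searched on both strands for TATAAA (found near many starts), CCAAT (bound by NF-Y), GGGCGG (bound by Sp1), TGACTCA (bound by AP-1), CACGTG (bound by factors such as MYC), GGAATG (bound by TEAD factors), CAGACA (bound by SMADs) and the CArG box (bound by SRF). Of these a CArG box can hold TATAAA or CCAAT. A match describes the letters in the window and not a site that is bound.

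GGGCGG was present in 9 of the 12 windows and in at least 1 window of each of the 7 genes, beside 35.7% of all 32851 windows of the table. Of the 9 windows, 2 of *Efemp2* overlap and share 5 of these matches, so that 1 stretch is counted in both. CAGACA was present in 4 windows, of *Fbln1*, *Fbln5* and *Mfap2* (21.0% of all windows), at 3 separate places, as the 2 windows of *Fbln1* overlap and hold the same match, and CCAAT in 2 windows, of *Fbln5* and *Mfap2* (37.4%). CACGTG was present once in the stretch shared by the 2 windows of *Fbln1* (7.15%) and GGAATG in 1 window of *Mfap2* (14.7%). TATAAA (13.6%), TGACTCA (5.20%) and the CArG box (1.63%) were in none of the 12 windows.

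The bases upstream of a start are shown for *Mfap2*, which had the largest difference among genes with a window, and for *Fbln5* and *Efemp2*, whose differences were alike. They lie at chr4:141010174-141010423 (plus strand), chr12:101819120-101819369 (minus strand) and chr19:5473696-5473945 (plus strand) and overlap no annotated gene. Capitals mark matches on either strand, in which CCGCCC stands for GGGCGG of the opposite strand, TGTCTG for CAGACA of that strand and ATTGG for CCAAT of that strand. *Mfap2* held CAGACA, then GGAATG, then CCAAT. *Fbln5* held GGGCGG, then CCAAT, then GGGCGG again, and *Efemp2* held GGGCGG on each strand.
Mfap2: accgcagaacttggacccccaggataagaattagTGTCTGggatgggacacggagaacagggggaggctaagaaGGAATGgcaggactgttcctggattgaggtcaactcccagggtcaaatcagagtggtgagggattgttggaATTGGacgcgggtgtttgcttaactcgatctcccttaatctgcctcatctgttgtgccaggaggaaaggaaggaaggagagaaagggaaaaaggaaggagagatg
Fbln5: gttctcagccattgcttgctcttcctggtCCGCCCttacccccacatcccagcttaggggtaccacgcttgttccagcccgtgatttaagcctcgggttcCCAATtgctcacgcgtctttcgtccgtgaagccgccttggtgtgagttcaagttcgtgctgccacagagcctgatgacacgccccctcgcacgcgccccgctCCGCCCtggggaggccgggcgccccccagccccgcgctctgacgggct
Efemp2: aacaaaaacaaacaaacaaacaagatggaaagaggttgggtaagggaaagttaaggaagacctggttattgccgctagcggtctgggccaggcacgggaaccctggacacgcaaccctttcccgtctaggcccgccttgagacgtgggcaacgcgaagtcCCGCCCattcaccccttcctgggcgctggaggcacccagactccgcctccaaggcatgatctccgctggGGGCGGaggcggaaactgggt

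Genes related to the elastic fiber were followed in 4 lists of 36 genes, which hold partners of microfibrils, genes of cross-linking, proteases that can degrade elastin and disease genes that act outside the fiber. Of these, 34 were tested, and 19 were called lower, 5 higher and 10 neither way, with a median log2 difference of -0.46. Over all genes tested 24.1% were called lower and 23.3% higher, with a median of -0.0035. Leaving out 1 library at a time gave 17 to 21 genes lower and 5 higher. The lists were chosen with earlier results of these data known, so nothing is read from these counts. The adjusted p-values of the listed genes are likewise a description.

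Proteins that bind microfibrils (LTBPs, EMILINs, ADAMTS-like proteins and relatives) made up the first list, with 6 of 13 tested genes lower, 2 higher and a median of -0.30. Of all genes tested, 24.1% were called lower and 23.3% higher. *Mfap4*, which encodes a glycoprotein that binds tropoelastin and fibrillin, was at 296, 317 and 1917 normalized counts in *Rnf40*+/+ and at 108, 121 and 87.8 in Rnf40-/- MEFs. *Rnf40*+/+ replicate 3 was again far above its group, and the groups did not overlap. The log2 difference was -2.42 ± 0.53 (adjusted p = 0.00256, limma with Benjamini-Hochberg adjustment) and -1.54 without that library, where the adjusted p was 3.26e-06 (3.26e-06 to 0.0159 over the alternatives).

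*Emilin1*, an elastin-binding glycoprotein, fell from 3503 ± 121 to 1639.6 ± 138 normalized counts (log2 difference -1.10 ± 0.07, adjusted p = 3.08e-07 in limma). *Thsd4*, which promotes the deposition of fibrillin, rose from 83.7 ± 14.2 to 145 ± 23.2 (0.79 ± 0.18, adjusted p = 0.00372), and *Adamtsl4*, mutated in inherited lens dislocation, rose from 862 ± 51.4 to 1389 ± 76.8 (0.69 ± 0.08, adjusted p = 1.67e-05). All of these showed their direction in every library. *Emilin3* was not detected, at 0.799 to 2.04 normalized counts. *Emilin2* was not called (adjusted p = 0.228) but was called lower without *Rnf40*+/+ replicate 1 (adjusted p = 0.0266, range over the alternatives 0.0266 to 0.584, limma, edgeR and DESeq2).

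The cross-linking list held the 5 lysyl oxidases, the protease *Bmp1* and the copper pump *Atp7a*. Of these 7 genes, 3 were called lower (*Loxl1*, *Loxl2* and *Loxl3*) and 2 higher (*Loxl4* and *Atp7a*), and the median was -0.13. The shares over all genes tested were 24.1% lower and 23.3% higher. *Loxl3* fell from 5008 ± 290.0 to 1225 ± 10.8 normalized counts (log2 difference -2.03 ± 0.06, adjusted p = 2.41e-09 in limma). *Loxl1*, the lysyl oxidase that binds fibulin-5 and maintains elastic fibers in adult tissue, fell from 7235 ± 487 to 3429 ± 199 (-1.08 ± 0.07, adjusted p = 3.09e-07).

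*Atp7a*, which loads lysyl oxidases with copper, rose from 601 ± 88.6 to 836 ± 68.3 normalized counts (log2 difference 0.48 ± 0.11, adjusted p = 0.00297 in limma). *Loxl4* rose from 1151 ± 76.8 to 1441 ± 115 (0.32 ± 0.08, adjusted p = 0.00596). *Lox* had the highest normalized counts of the list and encodes the enzyme that fibulin-4 brings to tropoelastin. It was at 21172 ± 1603 and 19266 ± 756, a log2 difference of -0.13 ± 0.08 that was not called (adjusted p = 0.165 in limma).

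Of the proteases that can degrade elastin, 6 of 8 tested genes were called lower and 1 higher, with a median of -0.70. Among all genes tested 24.1% were called lower and 23.3% higher. *Mmp9*, a gelatinase, was at 139.7, 56.1 and 72.7 normalized counts in *Rnf40*+/+ and at 27.5, 15.7 and 5.67 in Rnf40-/- MEFs (log2 difference -2.52 ± 0.48, adjusted p = 0.00111 in limma). *Ctss*, cathepsin S, fell from 365 ± 109 to 137 ± 15.1 (-1.38 ± 0.18, adjusted p = 6.95e-05 in limma, and -1.15 without *Rnf40*+/+ replicate 3). *Mmp12*, the macrophage elastase, rose from 133 ± 51.4 to 293 ± 32.8 (1.20 ± 0.22, adjusted p = 0.000873 in limma, and 1.49 without that library). None of these 3 overlapped between the genotypes. Every Rnf40-/- library was below every *Rnf40*+/+ library in 28.7% of all genes tested. *Ctss* and *Mmp12* were highest among the *Rnf40*+/+ libraries in replicate 3. Of the macrophage markers, *Lyz2*, *Cd68*, *Ptprc*, *Csf1r* and *Emr1* were also highest there, and *Itgam* was highest in replicate 1. Between the genotypes *Lyz2* was called lower and *Ptprc* higher. The part of macrophages in these values was not tested. *Elane*, neutrophil elastase, had 0 reads in every library.

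The call of *Ctsl*, cathepsin L and the protease of this list with the highest normalized counts, was narrow (log2 difference -0.21 ± 0.07, adjusted p = 0.0317 in limma). It was lost without *Rnf40*+/+ replicate 2 (adjusted p = 0.0611) and without Rnf40-/- replicate 1, 2 or 3 (0.128, 0.101 and 0.0596), as well as with no gene filter beyond 1 read (0.0532), with a range of 0.00531 to 0.128 over the alternatives. *Cela1* was not called (adjusted p = 0.0592 in limma) but was called lower without *Rnf40*+/+ replicate 1 (0.0237) or Rnf40-/- replicate 3 (0.0307), with a range of 0.0237 to 0.203.

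The last list held genes that are mutated in inherited cutis laxa or arterial tortuosity and act outside the fiber. Of 6 genes, 4 were called lower and 0 higher (24.1% and 23.3% of all genes tested), with a median of -0.46. The genes with the largest falls both act in proline synthesis. *Pycr1* fell from 361 ± 34.8 to 191 ± 16.1 normalized counts (log2 difference -0.92 ± 0.12, adjusted p = 6.11e-05 in limma) and *Aldh18a1* from 2087 ± 75.6 to 1116 ± 39.2 (-0.90 ± 0.07, adjusted p = 6.71e-07). *Gorab*, called lower (adjusted p = 0.0115), was not called without Rnf40-/- replicate 1 (0.0509, range 0.00284 to 0.0509).

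**Figure D3:**
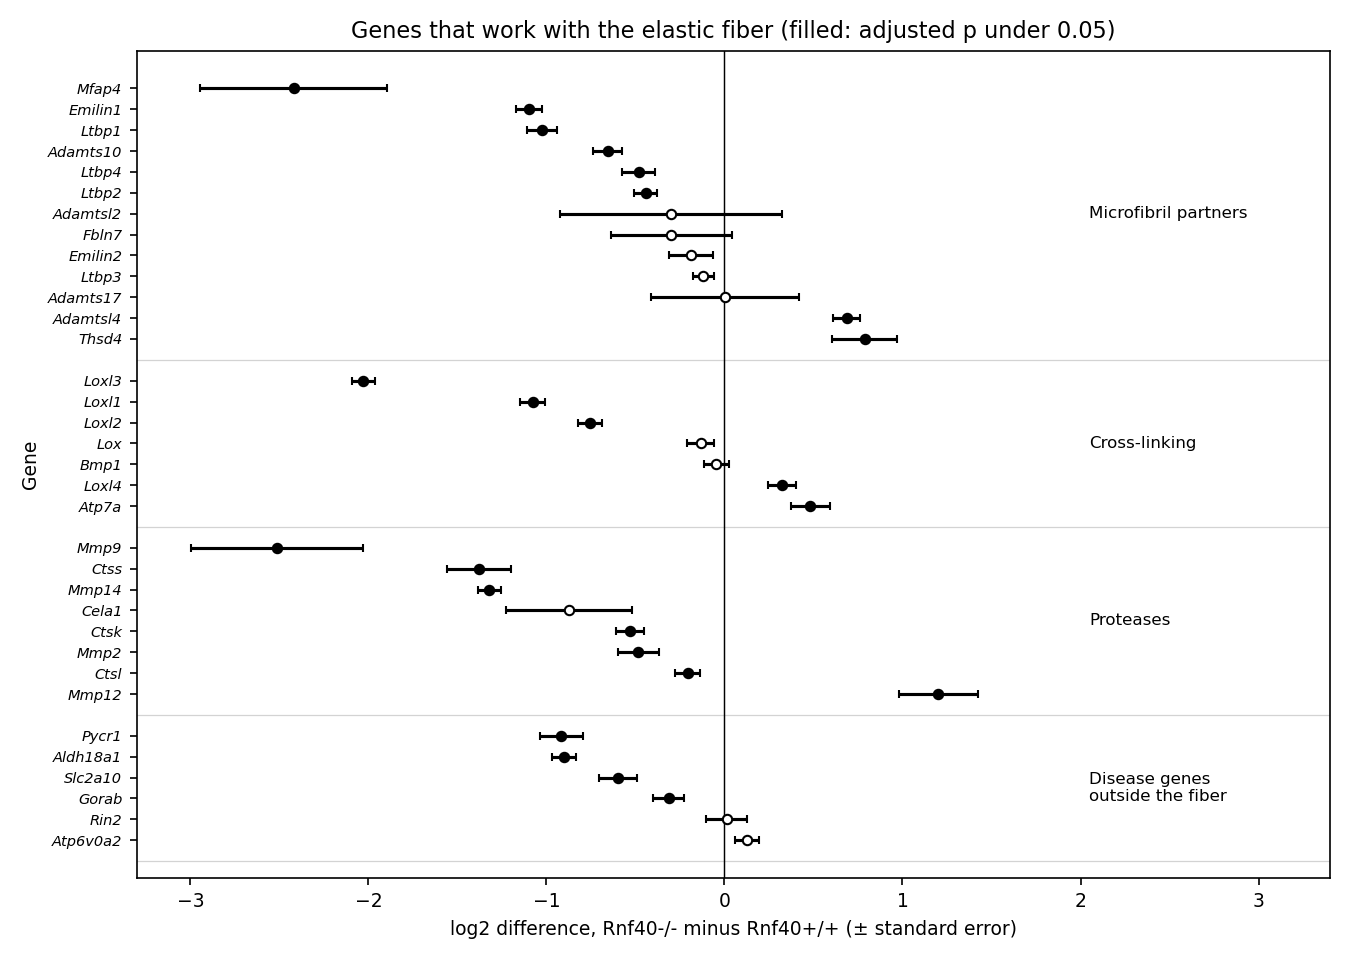
Log2 difference between Rnf40-/- and *Rnf40*+/+ MEFs with its standard error (n = 3 libraries a genotype) for the 34 tested genes of the 4 lists, filled where the adjusted p of limma was under 0.05. Filled points number 19 below 0 and 5 above 0, with *Mmp9* at -2.52, *Mfap4* at -2.42 and *Loxl3* at -2.03 farthest to the left and *Mmp12* at 1.20 farthest to the right.

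Marker genes of the cells that make elastin were read beside these values. All 8 fibroblast markers (*Col1a1*, *Col1a2*, *Col3a1*, *Pdgfra*, *Thy1*, *Vim*, *S100a4* and *Fn1*) were present in every library and were called lower in Rnf40-/- MEFs, beside 24.1% of all genes tested. Their sum was 683029, 718786 and 748915 normalized counts in *Rnf40*+/+ and 412131, 408965 and 411900.0 in Rnf40-/- MEFs. *Fn1*, fibronectin, held 47.7% of the sum. Among them the call of *Vim* (adjusted p = 0.0483 in limma) was lost in 8 of the 14 alternatives. These include leaving out *Rnf40*+/+ replicate 1 or 2 (adjusted p = 0.136 and 0.0840) or Rnf40-/- replicate 1, 2 or 3 (0.170, 0.176 and 0.0521), a pseudocount of 10 (0.0622) and no gene filter beyond 1 read (0.0862), with a range of 0.00355 to 0.176 over the alternatives.

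All 8 smooth muscle markers (*Myh11*, *Smtn*, *Lmod1*, *Des*, *Cnn1*, *Acta2*, *Tagln* and *Synpo2*) were also called lower, with a median log2 difference of -2.36, beside 24.1% and -0.0035 over all genes tested. They summed to 158147, 170401 and 155640.0 normalized counts in *Rnf40*+/+ and to 27158, 25020.3 and 30219.9 in Rnf40-/- MEFs, and *Acta2*, smooth muscle actin, held 66.3%. The sum was not higher in *Rnf40*+/+ replicate 3, the library in which *Eln* was highest. The part of this list in the difference of *Eln* was not tested.

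Markers of other cells were read in the same way, beside 24.1% of all genes tested called lower and 23.3% called higher. Of 5 endothelial markers tested, 3 were called higher (*Pecam1*, *Cdh5* and *Kdr*) and 1 lower (*Emcn*, which held the largest share of the summed normalized counts, 38.8%). The 6 listed genes summed to 279, 205 and 139 normalized counts in *Rnf40*+/+ and to 225, 315 and 242 in Rnf40-/- MEFs, with *Cldn5* not detected. *Pecam1* was at 2.40 to 4.78 in *Rnf40*+/+ and at 18.9 to 35.5 in Rnf40-/- MEFs. *Tek* was at 115, 11.2 and 16.0 in *Rnf40*+/+ and was called higher only without *Rnf40*+/+ replicate 1 (log2 difference 2.09 in place of 1.09, adjusted p = 0.000167 in place of 0.186 in limma, range 0.000167 to 0.787).

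Of the 6 macrophage markers, *Lyz2* was called lower (log2 difference -1.18 ± 0.17, adjusted p = 0.000167 in limma). Its log2 difference was -0.91 without *Rnf40*+/+ replicate 3. *Ptprc* was called higher (1.37 ± 0.19, adjusted p = 0.00012 in limma) and 4 were called neither way. *Itgam*, one of the 4, was called lower without *Rnf40*+/+ replicate 2 (adjusted p = 0.0399, range 0.0399 to 0.497). Epithelial markers were low, with 0 of 2 tested genes called and a sum of 97.9, 26.5 and 55.1 in *Rnf40*+/+ and of 53.0, 33.4 and 30.2 in Rnf40-/- MEFs. Of 3 chondrocyte markers tested, *Col2a1* and *Sox9* were called lower, and the list, with *Col2a1* at 69.7% of it, summed to 1666, 1427 and 1235 in *Rnf40*+/+ and to 509.8, 593 and 584 in Rnf40-/- MEFs.

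Among 15527 other genes of the whole table with a mean normalized count above 15, tested or not, likeness to *Eln* was measured as the root mean square distance between centred log2 profiles over the 6 libraries. *Fam64a* was nearest, at a distance of 0.665, followed by *Cnn1* (0.931), *Actg2* (0.978), *Pbk* (0.989) and *Myl9* (1.00). *Cnn1* encodes calponin, *Actg2* an actin of smooth muscle, *Myl9* a myosin light chain and *Pbk* a mitotic kinase. *Fam64a* was at 166, 170.3 and 199 normalized counts in *Rnf40*+/+ and at 10.2, 14.6 and 5.67 in Rnf40-/- MEFs, the latter from 10, 14 and 6 reads. Its highest and lowest libraries were the same as for *Eln*. *Cnn1* was at 4559.6, 4856 and 3855 in *Rnf40*+/+ and at 263, 279 and 286 in Rnf40-/- MEFs, so that replicate 3 was the lowest *Rnf40*+/+ library there and the highest for *Eln*. Of the elastic fiber genes *Mfap2* was the nearest to *Eln* at 1.58, in position 128, and *Efemp1* the farthest at 2.62, in position 8513. As the profiles were not scaled, the distance depends strongly on the size of the difference between the genotypes. That difference was known when the members were chosen.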

How the data were processed

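RNA-seq of 3 *Rnf40*+/+ and 3 Rnf40-/- MEF libraries was analysed from 1 table of values per gene. The deposited signal is a gene's reads over the size factor of the library, as the authors computed it with DESeq after mapping to mm9. The submitters' processing notes name Bowtie2 (version 2.1.0) and DESeq (version 1.14.0); the counting tool and its strand setting are not given in the sources used here. Dividing by the smallest step made 100% of positive values whole (tolerance 0.001), which recovered the reads.

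Genotypes were compared with limma (version 3.58.1, trend) on log2(normalized count + 1) with genotype alone, two-sided, with Benjamini-Hochberg adjustment over 16378 genes kept by filterByExpr of edgeR on the reads. A total of 7764 genes were called at an adjusted p under 0.05, 3809 higher and 3955 lower. On the recovered reads edgeR (version 4.0.16) called 3857 higher and 3940 lower, and DESeq2 (version 1.42.0) called 3563 and 3726. An exact permutation test of 3 against 3 libraries cannot give a p below 0.1, so none was run. The fits were tested on simulated data. Errors are the SD over 3 libraries for means and the standard error of limma for differences. Intervals and the floor of 3 reads cover counting error only.

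The genes named are the 10 elastic fiber genes, *Rnf40*, in each list the called genes with a mean above 15 that had the 2 largest rises and 2 largest falls, genes of the lists not detected, and the 5 genes nearest to *Eln*. Others, named for a call that changed or as a neighbour or marker, were chosen after values were seen. The members and lists were chosen with earlier results of these data known. Positions and exon lengths came from the GENCODE vM1 annotation of mm9, and near-identical protein-coding transcripts (at least 95% identity over 100 bases) from BLAST (version 2.17.0). R (version 4.3.3), Python (version 3.11.15), scipy (version 1.17.1) and pandas (version 2.3.3) were used.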

Additional observations from a re-analysis of the deposited data

How the results depend on the processing

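The 14 alternatives were pseudocounts of 0.1 and 10, no gene filter beyond 1 read, a mean above 15, edgeR, DESeq2, upper-quartile scaling, a replicate block and each library left out in turn. All 140 log2 differences of the 10 genes under them kept their sign and lay within 1 SD (between replicates, on the log2 scale) of the values given. The block and the gene filters cannot move a log2 difference. Leaving out 1 of 3 libraries moves a mean by less than 1 SD, so these alternatives could not have failed that bar. *Rnf40*+/+ replicate 3 widens that SD for *Fbn2* and *Fbln1*, whose log2 differences ranged from -0.58 to -0.18 and from -0.98 to -0.24 over the libraries left out. *Eln* had the lowest log2 difference in each, at -4.21 with a pseudocount of 10 and -5.19 with edgeR. No member lost its call. *Fbn2* and *Fbln1* were called lower too with edgeR, with the replicate block, and without *Rnf40*+/+ replicate 1 or 2. The log2 ratio of *Fbn1* to *Eln* in Rnf40-/- MEFs was 8.84 with a pseudocount of 10, which compresses the values of a gene with few reads.

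Replicate numbers did not pair the libraries: deviations of libraries with the same number correlated at 0.0118, 0.0174 and 0.0212, and none of the libraries correlated best with its own number. With the replicate number as a block 8217 genes were called, 4021 higher and 4196 lower, and 9 members were lower. In the partner lists the block ended the call of *Ctsl* (adjusted p = 0.0522, range 0.00531 to 0.128) and gave one for *Cela1*, and among the neighbours it ended that of *Ccdc85a* (adjusted p = 0.0568, range 0.0295 to 0.0998). Among the markers it ended the call of *Vim* (adjusted p = 0.0973, range 0.00355 to 0.176).

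Leaving out 1 library gave 6393 to 7713 genes called, 3051 to 3817 higher and 3342 to 3896 lower. *Eln* had 7 to 20 reads in an Rnf40-/- library, against at least 174 for any other member, and few reads limit the precision of its difference.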
